A study of Mus musculus with 4 samples.

Results

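Wnt5a, Wnt5b, Ror1, Ror2, Ryk and Ptk7 were followed across the cells of neonatal mouse brain as a group of 6 genes, taken by name from a panel of 140: both Wnt5 ligands and the receptors that bind them outside the beta-catenin pathway. The RNA was counted by MERFISH, which images barcoded probes in the tissue and assigns each decoded molecule to a segmented cell. Mice were 5 days old and the whiskers on the right of the snout had been lesioned 24 h earlier, at 4 days. The 4 coverslips each carried a wild-type and a Cx3cl1(-/-) section of 10 µm through the barrel cortex region. Coverslips 1 and 2 (male replicates 1 and 2) held male mice and coverslips 3 and 4 (female replicates 1 and 2) female mice. All mice were lesioned, and no column says which section or side a cell belonged to, so genotype and hemisphere were not compared. Every value below pools both sections, except the ratios between sections of unknown genotype that were separated by position.

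Wnt5a and Wnt5b are secreted ligands that mostly act without beta-catenin, through planar cell polarity and calcium signalling. Ror1 and Ror2 are receptor tyrosine kinase-like proteins with a frizzled-like ligand-binding domain, Ryk is a catalytically inactive receptor with a Wnt inhibitory factor domain, and Ptk7 is an inactive kinase-like receptor of the planar cell polarity pathway. In the mouse brain, Wnt5a acting through Ryk is known to repel growing cortical axons.

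In GRCm38.p6 the protein-coding genes lie at chr14:28504543-28527448 (Wnt5a), chr6:119432531-119544824 (Wnt5b), chr4:100095791-100444806 (Ror1), chr13:53109317-53286124 (Ror2), chr9:102834920-102908307 (Ryk) and chr17:46564451-46630049 (Ptk7). RefSeq promoter windows, from 250 bases before to 50 after a start, were matched by symbol for 5 of the 6 genes; Wnt5a was not matched. Those of Ror1, Ror2 and Ptk7 are shown because these receptors had a single window each and were all high in the same cells. Capitals mark the GC box letters GGGCGG and the TCF/LEF core letters CTTTGA on either strand; these motifs share no overlap here.
Ror1 promoter (chr4:100095541-100095840, plus strand): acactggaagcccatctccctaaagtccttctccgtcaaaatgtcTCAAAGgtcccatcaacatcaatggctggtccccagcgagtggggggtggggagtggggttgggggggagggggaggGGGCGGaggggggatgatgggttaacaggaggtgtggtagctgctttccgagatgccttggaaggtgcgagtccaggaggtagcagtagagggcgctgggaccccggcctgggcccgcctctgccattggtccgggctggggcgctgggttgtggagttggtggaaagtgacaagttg
Ror2 promoter (chr13:53286075-53286374, minus strand): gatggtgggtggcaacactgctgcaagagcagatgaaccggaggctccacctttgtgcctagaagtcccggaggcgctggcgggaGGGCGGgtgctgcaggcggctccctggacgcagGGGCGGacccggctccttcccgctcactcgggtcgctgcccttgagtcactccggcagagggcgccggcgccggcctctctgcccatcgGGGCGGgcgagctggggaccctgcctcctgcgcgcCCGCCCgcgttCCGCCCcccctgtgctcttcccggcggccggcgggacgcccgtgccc
Ptk7 promoter (chr17:46629455-46629754, minus strand): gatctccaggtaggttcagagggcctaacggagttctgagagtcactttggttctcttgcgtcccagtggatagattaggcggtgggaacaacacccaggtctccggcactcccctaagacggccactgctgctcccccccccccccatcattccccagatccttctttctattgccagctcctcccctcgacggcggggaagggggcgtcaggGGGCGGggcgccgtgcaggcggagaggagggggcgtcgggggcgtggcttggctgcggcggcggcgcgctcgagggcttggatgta
The GC box letters occurred 5 times in the Ror2 window and 1 time in each of the others, and 35.7% of the 32851 windows in the table held them. The TCF/LEF core occurred 1 time, in the Ror1 window, against 16% of all windows. These matches describe the letters only. The Ror1 and Ror2 windows each span an end of the gene interval given above, while the Ptk7 window lies wholly inside its interval.

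The files held 863580 cells, of which 794833 with at least 20 gene counts were kept. Median gene counts per cell ran from 123 to 268 over the coverslips. Blank barcodes are codes left without probes, so their counts are errors of decoding. They made up 1.16% to 1.48% of counts. Clustering on 32 marker genes, none of them a member, gave 16 populations with 98.2% of the kept cells; each is called after its marker genes, or "-like" where at least 3 markers of a type led it. The panel held none of the listed fibroblast, choroid or ependymal markers, so cells of those kinds could not be named. No cell was found with the same volume and centre on more than one coverslip. Whether the coverslips came from different litters or preparations is not stated, so the spread over them may be partly technical.

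Over all kept cells Ryk and Ptk7 lay above all 40 blanks on every coverslip, at 1.16 ± 0.28 and 1.12 ± 0.36 counts per cell (SD, n = 4 coverslips, as below unless stated). Wnt5a (0.301 ± 0.038) and Ror2 (0.269 ± 0.045) lay above 39 or 40 blanks. Wnt5b (0.127 ± 0.030) lay above 36 to 38 blanks and Ror1 (0.123 ± 0.016) above 34 to 37. Counts of different genes depend on their probes, so levels were compared between cells and not between genes. Ryk and Ptk7 lay above every blank on all 4 coverslips in 16 of 16 populations, Wnt5a and Ror2 in 4, Ror1 in 3 and Wnt5b in 1. A level under the highest blank does not show that the RNA was absent, only that it was not detectable at this rate of false counts.

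The ligands and 3 of the 4 receptors were high in the same small cluster. It was led by Mrc1 and Lyve1, genes of the macrophages at brain borders, is called the border cluster here for them, and was divided into its main pieces at the finer clustering, an Mrc1 Lyve1 piece of 8811 cells and a piece led by Sox9 of 7750 cells. Each population was tested against the mean of the other populations with edgeR (glmTreat against a 2-fold difference, counts per cell volume, adjusted over 108 genes outside the clustering). A gene was called higher only where it lay above every blank on every coverslip. Of the 96 comparisons of 6 genes in 16 populations, 10 (10.4%) were called higher and 11 (11.5%) lower, close to the 11.2% and 13.4% among all genes. The errors of these fits draw on the spread over all populations and not on a single comparison.

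**Figure D1:**
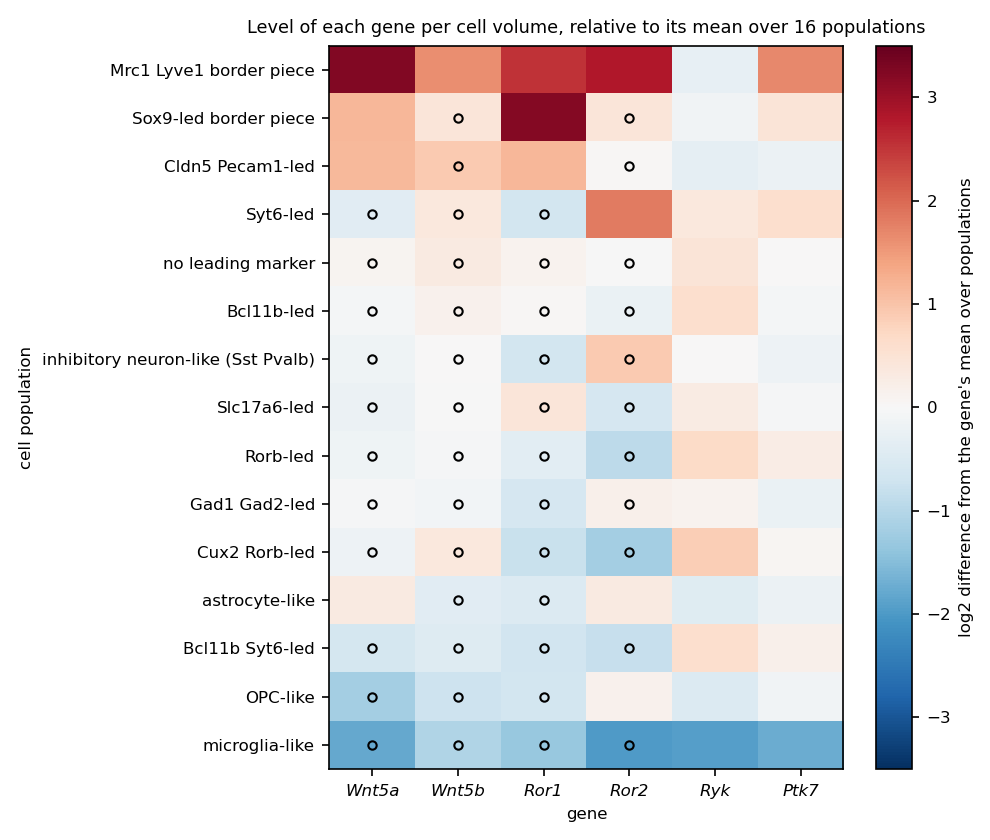
Level of each gene per cell volume in the populations reported here, as the log2 difference from that gene's mean over populations (colour, mean of 4 coverslips). Open circles mark populations in which the gene was not above all 40 blanks on every coverslip. Wnt5a, Wnt5b, Ror2 and Ptk7 are highest in the Mrc1 Lyve1 border piece, Ror1 in the Sox9-led piece and Ryk in the Cux2 Rorb-led cells.

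In the Mrc1 Lyve1 border piece both ligands, Ror1, Ror2 and Ptk7 were called higher, 5 of 6 members where 28.7% of all genes tested were called higher. Wnt5a stood at 2.21, 2.42, 2.22 and 2.76 counts per cell on coverslips 1 to 4. The highest blank there was 0.161. All 4 values lay above every value of any other main population, and the level per volume was log2 3.46 ± 0.06 (SE) above the mean of the others, a fold of 11.0 (edgeR adjusted p = 9.7e-44). These cells were 1.11% of the kept cells and held 9.06% ± 2.06 of their Wnt5a counts.

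The receptor Ror2 stood at 1.49, 1.15, 1.47 and 1.71 counts per cell in the same piece. It was above the others on every coverslip, by log2 3.00 ± 0.06 (edgeR adjusted p = 7e-37). Ror1 stood at 0.582, 0.488, 0.730 and 0.713 counts per cell, log2 2.69 ± 0.08 above the others (edgeR adjusted p = 1.6e-27). Ptk7 stood at 3.24, 2.29, 3.80 and 4.10 counts per cell, log2 1.81 ± 0.05 higher (edgeR adjusted p = 1.8e-20). Male coverslip 2 was the lowest for each of these receptors. Wnt5b was the weakest of the 5, at 0.342 ± 0.071 counts per cell and log2 1.74 ± 0.07 (edgeR adjusted p = 1.3e-15). Ryk was not called, at 0.761 ± 0.108 counts per cell.

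Other genes of noncanonical Wnt signalling, a list with 24 genes on the panel beside the members, held 7 that were higher and 4 lower in this piece, where 28.7% and 13.9% of all genes were, with a median of log2 0.66 against 0.06 over all genes tested and 2.25 over the members. The largest differences were in the frizzled receptor Fzd2 (log2 3.29 ± 0.07), the ligand Wnt4 (log2 3.29 ± 0.05) and the cell-surface proteoglycan Gpc3 (log2 3.08 ± 0.07), each called higher.

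The border cells held RNA of several kinds of cell. Per cell, the Mrc1 Lyve1 piece carried 4.33 ± 1.23 counts of Mrc1 and 2.76 ± 1.10 of Csf1r, both macrophage genes, but also 4.38 ± 0.25 of Pdgfra, 3.34 ± 0.77 of Pdgfrb, 2.71 ± 0.70 of the endothelial gene Cldn5 and 1.85 ± 0.33 of Col4a6, a basement membrane collagen. Its cells were therefore divided by their summed counts of the macrophage genes Csf1r, Mrc1 and C1qa. The 3603 cells with none of these counts, 40.9% of the piece, carried 2.17, 2.31, 2.01 and 2.60 Wnt5a counts per cell on coverslips 1 to 4, which is 16.8 ± 2.7 per 1000 other gene counts. The 2215 cells with 1 to 3 macrophage counts carried 17.7 ± 2.8 per 1000, and the 2993 cells with 4 or more carried 10.5 ± 1.9. On every coverslip the cells with no macrophage count lay above those with 4 or more per 1000 other counts, while those with 1 to 3 lay above the cells with none on 3 of 4 coverslips.

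The receptors were also lower, by this measure, in the cells with 4 or more. Ror2 stood at 10.7 ± 1.1 per 1000 other counts in cells without macrophage counts and at 5.80 ± 0.12 in cells with 4 or more. Ror1 stood at 4.73 ± 0.24 and 2.38 ± 0.18, and Ptk7 at 23.3 ± 2.6 and 14.2 ± 1.3. The ranges over coverslips did not overlap for these receptors, but the fall was not particular to them. Ryk, which was not called higher in this piece, was also lower without overlap, at 5.19 ± 0.21 and 3.61 ± 0.32. So were genes outside the members: Ezr at 5.42 ± 0.49 and 3.71 ± 0.55, Col4a6 at 12.9 ± 1.6 and 8.06 ± 0.68, and Wnt4 at 28.9 ± 3.9 and 18.0 ± 1.6. The share of all genes that were lower was not counted, and the other gene counts in this measure include Lyve1. Per cell the gap was smaller: Wnt5a stood at 2.27 ± 0.25 and 1.97 ± 0.23 counts, and Ptk7 at 3.23 ± 0.76 and 2.75 ± 0.70, with ranges that overlapped. Lyve1, a gene of border macrophages that was not used for the division, ran the other way, from 1.08 ± 0.26 to 34.6 ± 6.5 per 1000. No test was made on these divisions.

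**Figure D2:**
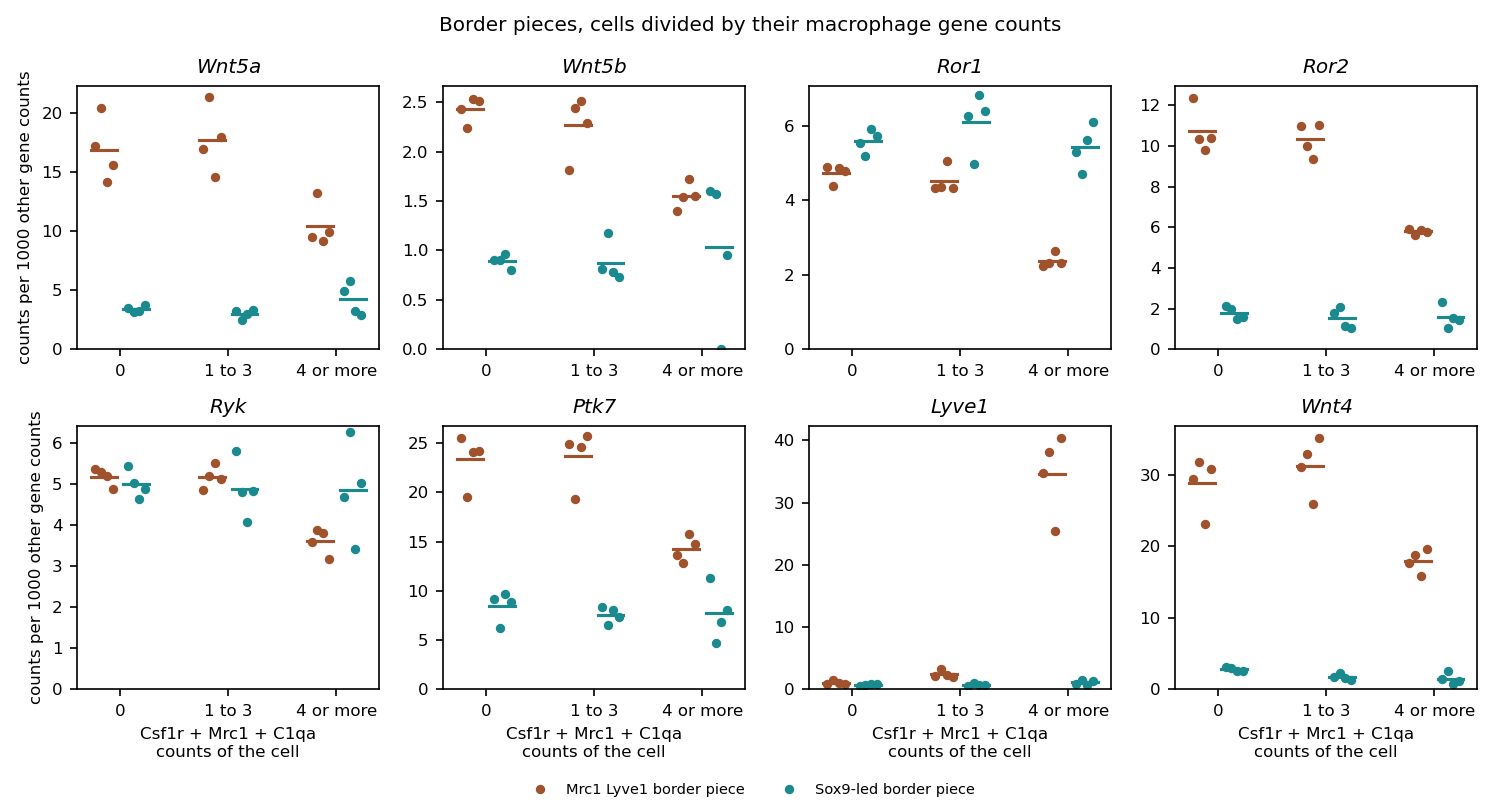
Counts per 1000 other gene counts in the border pieces, with cells divided by their summed Csf1r, Mrc1 and C1qa counts (x axis). Points are the 4 coverslips and bars their means. In the Mrc1 Lyve1 piece Wnt5a, Wnt5b, Ror1, Ror2, Ryk, Ptk7 and Wnt4 are lower at 4 or more macrophage counts, where Lyve1 is high.

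The Sox9-led piece shared the cluster but not its naming genes: Mrc1 stood there at 0.092 ± 0.019 and Lyve1 at 0.109 ± 0.039 counts per cell, below the Cldn5 Pecam1-led cells (0.138 and 0.125). It was rich in Ezr (10.4 ± 2.3 counts per cell), an epithelial membrane linker. In this piece 2 of 6 members were called higher, against 25.9% of all genes. Ror1 was highest here of all populations, at 0.791, 0.541, 0.988 and 1.19 counts per cell and log2 3.39 ± 0.08 above the mean of the others (edgeR adjusted p = 1.6e-36). Wnt5a was also called higher, at 0.495 ± 0.157 counts per cell and log2 1.22 ± 0.07 (edgeR adjusted p = 0.00184), a call that was lost without coverslip 4 (log2 1.09), with TMM factors (0.95), in DESeq2 (0.71) and in limma (1.18). Of the noncanonical list 13 of 24 were higher and 1 lower, where 25.9% and 11.1% of all genes were, led by Gpc3 (log2 3.36 ± 0.07), Fzd7 (log2 3.31 ± 0.08) and Sfrp1, a secreted Wnt antagonist (log2 3.20 ± 0.06).

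Set directly against each other, the pieces differed in ligand and in receptors. This contrast was chosen after the values were seen. The Mrc1 Lyve1 piece was higher in 4 of 6 members, where 10.2% of all genes were called higher: Wnt5a by log2 2.10 ± 0.11, Ror2 by 2.39 ± 0.12, Ptk7 by 1.28 ± 0.09 and Wnt5b by 1.21 ± 0.11 (edgeR adjusted p = 3.4e-15, 1.2e-17, 0.00107 and 0.0274). The 4.29-fold Wnt5a difference was between values that were both above the blanks. Ror2 and Wnt5b were not above every blank in the Sox9-led piece, so their folds rest partly on false counts in the lower piece. Ror1 ran the other way, at log2 -0.66 ± 0.14, which did not pass the 2-fold test; 12% of genes were called lower and 0 members. The Wnt5b call failed without either female coverslip (log2 1.15 and 1.20).

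Vessel cells formed a population led by Cldn5 and Pecam1, both endothelial genes. It was called higher in Wnt5a and Ror1, 2 of 6 members against 14.8% of all genes. Wnt5a stood at 0.589, 0.588, 0.614 and 0.730 counts per cell, log2 1.22 ± 0.07 above the others (edgeR adjusted p = 0.001). Ror1 stood at 0.280, 0.208, 0.281 and 0.333, log2 1.24 ± 0.09 above them (edgeR adjusted p = 0.00432). Of the noncanonical list 5 were higher and 6 lower, where 14.8% and 25% of all genes were, with the receptor genes Fzd6 (log2 4.17 ± 0.08), Fzd4 (log2 2.64 ± 0.05) and Lrp5 (log2 2.05 ± 0.04) furthest above.

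At the finer clustering these cells divided into 34516 led by Cldn5 and Pecam1 and 14558 led by Pdgfrb, a gene of the mural cells that wrap vessels. Some of the members differed between these divisions. In the Pdgfrb-led cells Wnt5b stood at 0.482, 0.336, 0.451 and 0.636 counts per cell, against 0.128, 0.091, 0.118 and 0.166 in the Cldn5 Pecam1-led cells, where it was under the highest blank on every coverslip. The ranges did not overlap. The direct difference, chosen after the values were seen, was log2 1.73 ± 0.11 (edgeR adjusted p = 1.3e-09), one of 3 members called higher in the Pdgfrb-led cells where 7.41% of genes were called higher and 0% lower. Ptk7 (log2 1.47 ± 0.10) and Ror1 (log2 1.36 ± 0.15) were the others; the Ror1 call failed without either female coverslip (edgeR adjusted p = 0.106 without coverslip 3 and 0.072 without coverslip 4). Like Wnt5b, Ror1 was under the highest blank in the Cldn5 Pecam1-led cells on every coverslip, so both folds rest partly on false counts there. Wnt5a was not called different by 2-fold between them (log2 -0.39 ± 0.13), nor were Ror2 (0.65 ± 0.13) and Ryk (0.27 ± 0.10). The Pdgfrb-led cells still carried 17.4 ± 3.3 Cldn5 counts per cell beside 15.4 ± 2.3 of Pdgfrb, so the division is one of degree.

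**Figure D3:**
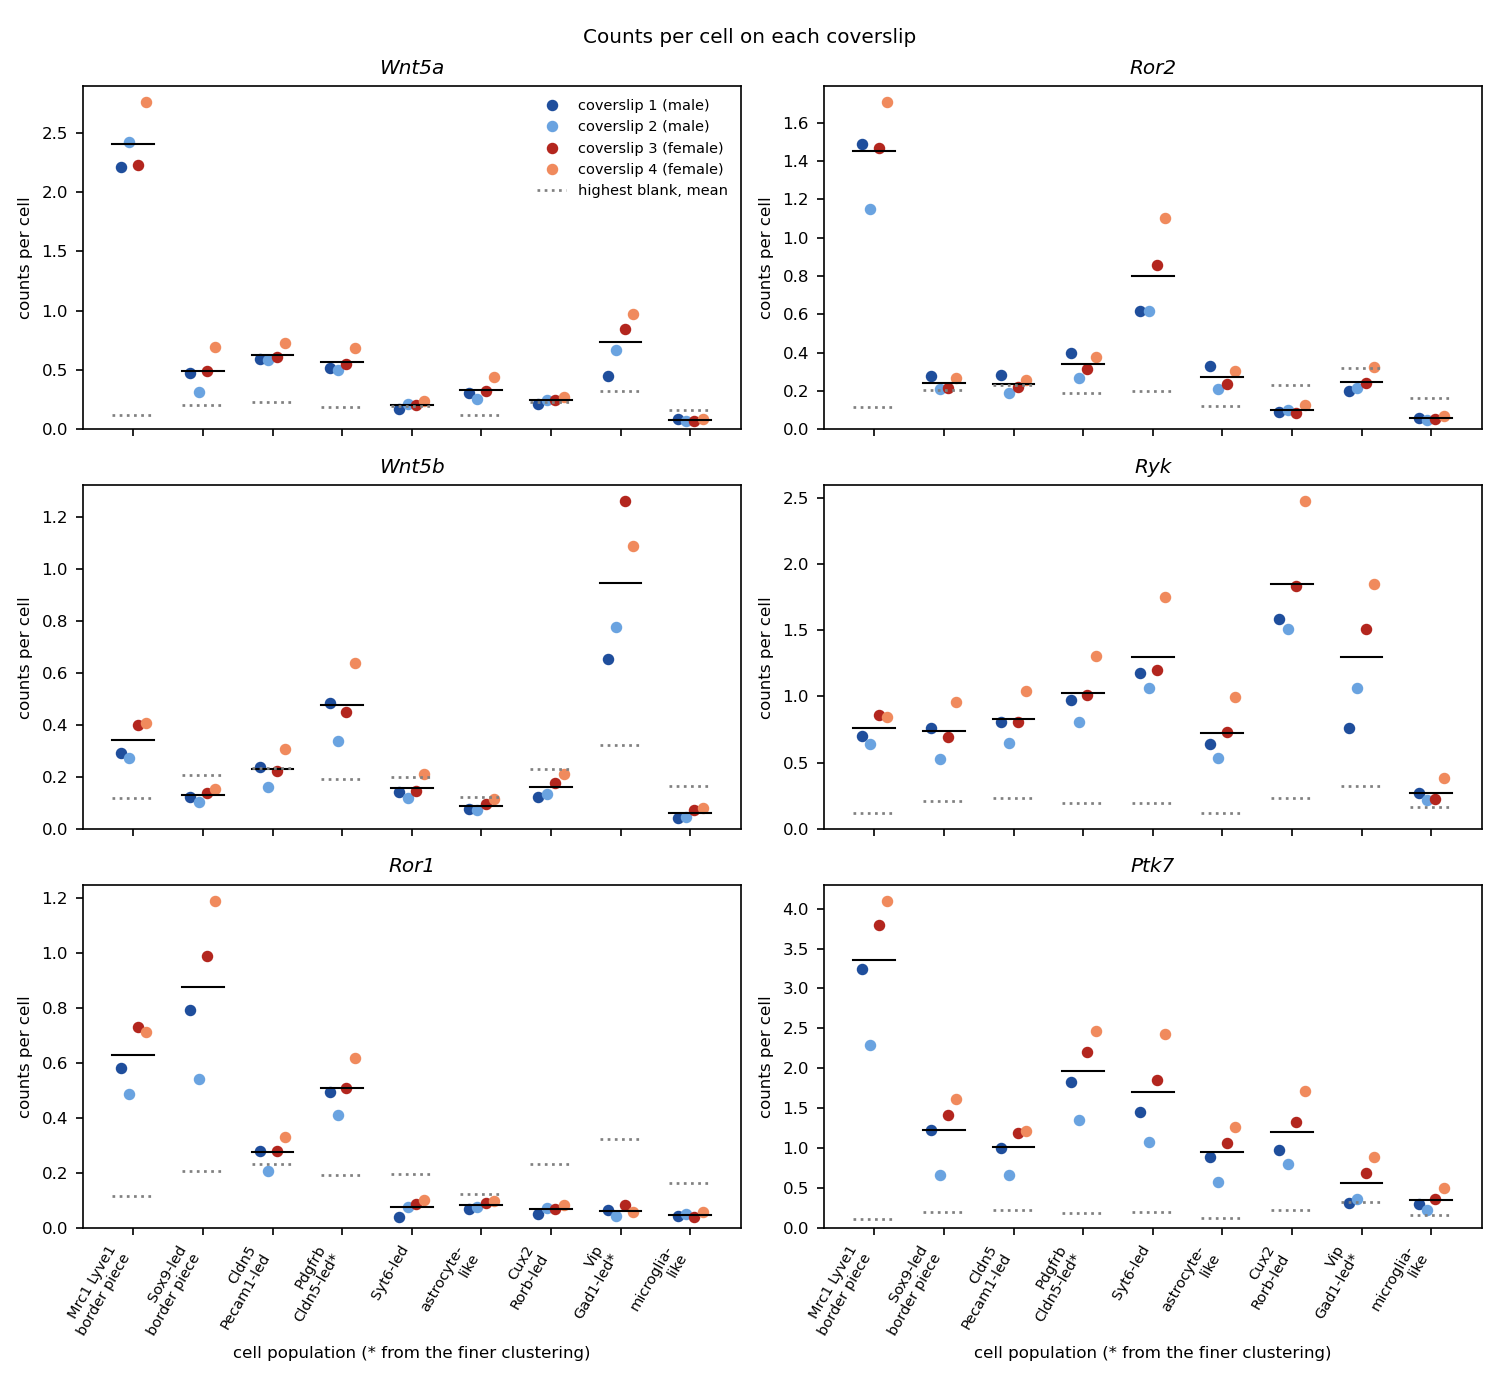
Counts per cell of each gene on the 4 coverslips (points), with their mean (black bar) and the mean of the highest blank barcode (dotted), in 9 cell populations. Wnt5a, Ror2 and Ptk7 are highest in the Mrc1 Lyve1 border piece, Ror1 in the Sox9-led piece, Wnt5b in the Vip Gad1-led cells and Ryk in the Cux2 Rorb-led cells; Ror2 is also high in the Syt6-led cells.

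Among the neurons of the main clustering, Ror2 was the member called. The Syt6-led population, named for a gene of deep cortical layers, was called higher in Ror2 alone, 1 of 6 members against 4.63% of all genes. Ror2 stood there at 0.618, 0.620, 0.858 and 1.10 counts per cell, log2 1.94 ± 0.07 above the mean of the others (edgeR adjusted p = 1.9e-18). The Cux2 Rorb-led population, named for genes of upper cortical layers and layer 4, had Ror2 at 0.091, 0.100, 0.084 and 0.130. It was called lower there (log2 -1.25 ± 0.09, edgeR adjusted p = 0.00264), 1 of 6 members against 10.2% of genes, and that call failed without coverslip 3 (log2 -1.18, adjusted p = 0.0635). In the distance comparison below, Ror2 in these cells was not above every blank on every coverslip in either distance class. The fold may thus rest partly on false counts. The Syt6-led cells were 4.96% of kept cells and held 14.9% of their Ror2 counts. In the noncanonical list 1 gene was higher and 2 lower, where 4.63% and 9.26% of all genes were: the kinase gene Prkce was higher in Syt6-led cells (log2 1.86 ± 0.06), while Gpc3 and Sfrp1 were lower (log2 -1.86 ± 0.11 and -1.23 ± 0.09).

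Ryk had its highest level in the Cux2 Rorb-led cells, at 1.59, 1.51, 1.83 and 2.48 counts per cell, with the Rorb-led cells next (1.74 ± 0.49). Its level per volume was log2 0.92 ± 0.05 above the mean of the others, under the 2-fold difference tested (edgeR adjusted p = 1). The order per volume went on with the Bcl11b-led and the Bcl11b Syt6-led cells, and these 2 were not ordered the same way on every coverslip. Ptk7 was present in every population and, after the border piece, was highest per volume in the Syt6-led cells on all 4 coverslips.

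Wnt5b stood out in a small population that the finer clustering separated, 1759 cells led by Vip, a gene of one class of cortical interneuron, and by Gad1. Wnt5b stood there at 0.653, 0.777, 1.26 and 1.09 counts per cell, where the highest blank was at most 0.395. The difference from the mean of the others was log2 2.92 ± 0.07 (edgeR adjusted p = 6.9e-44). Wnt5a was also called higher, at 0.452, 0.672, 0.844 and 0.976 counts per cell and log2 1.33 ± 0.10 (edgeR adjusted p = 0.00128), so both ligands and no receptor were called higher, 2 of 6 members against 6.48% of genes.

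Against the interneurons led by Sst and Pvalb, a contrast chosen after the values were seen, the Vip-led cells were log2 2.86 ± 0.12 higher in Wnt5b and log2 1.41 ± 0.14 higher in Wnt5a (edgeR adjusted p = 4.2e-28 and 0.00662). These were 2 of 6 members, against 3.7% of genes, and the Wnt5a call failed without coverslip 3 (adjusted p = 0.0747). In the Sst Pvalb-led cells neither ligand was above the highest blank. At the main resolution 92.5% of the Vip-led cells lay in a cluster left out for its low counts, so few of them enter the main populations.

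Microglia-like cells were the lowest or next to lowest of the 16 populations for every member. All 6 were called lower, in a population in which 63% of all genes were. Ryk stood at 0.272, 0.217, 0.222 and 0.383 counts per cell (log2 -2.06 ± 0.07, edgeR adjusted p = 1.4e-22) and Ptk7 at 0.353 ± 0.118 (log2 -1.85 ± 0.08), both above every blank. Wnt5a, Wnt5b, Ror1 and Ror2 were under the highest blank there on every coverslip. The median of all genes tested was log2 -1.39 in these cells by volume and -0.33 with TMM factors, under which no member was called lower. By volume, Ror2 was furthest below that median (log2 -2.13 ± 0.11) and Wnt5b was above it (log2 -1.14 ± 0.09, a call that failed without coverslip 1 or 4 and turned to log2 0.17 in DESeq2). In the noncanonical list 14 of 24 genes were lower and 1 higher, where 63% and 4.63% of all genes were, with Sfrp5 at log2 -2.48 ± 0.10, Gpc3 at -2.18 ± 0.12 and Sfrp1 at -2.01 ± 0.10.

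Of the other glia, OPC-like cells were called lower in Wnt5a (log2 -1.27 ± 0.09), 1 of 6 members against 20.4% of genes. That call did not hold with TMM factors, DESeq2 or library totals in place of volume. In astrocyte-like cells no member was called, where 18.5% of genes were higher and 9.26% lower, although Wnt5a (0.333 ± 0.079 counts per cell) and Ror2 (0.272 ± 0.055) lay above every blank on every coverslip.

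**Figure D4:**
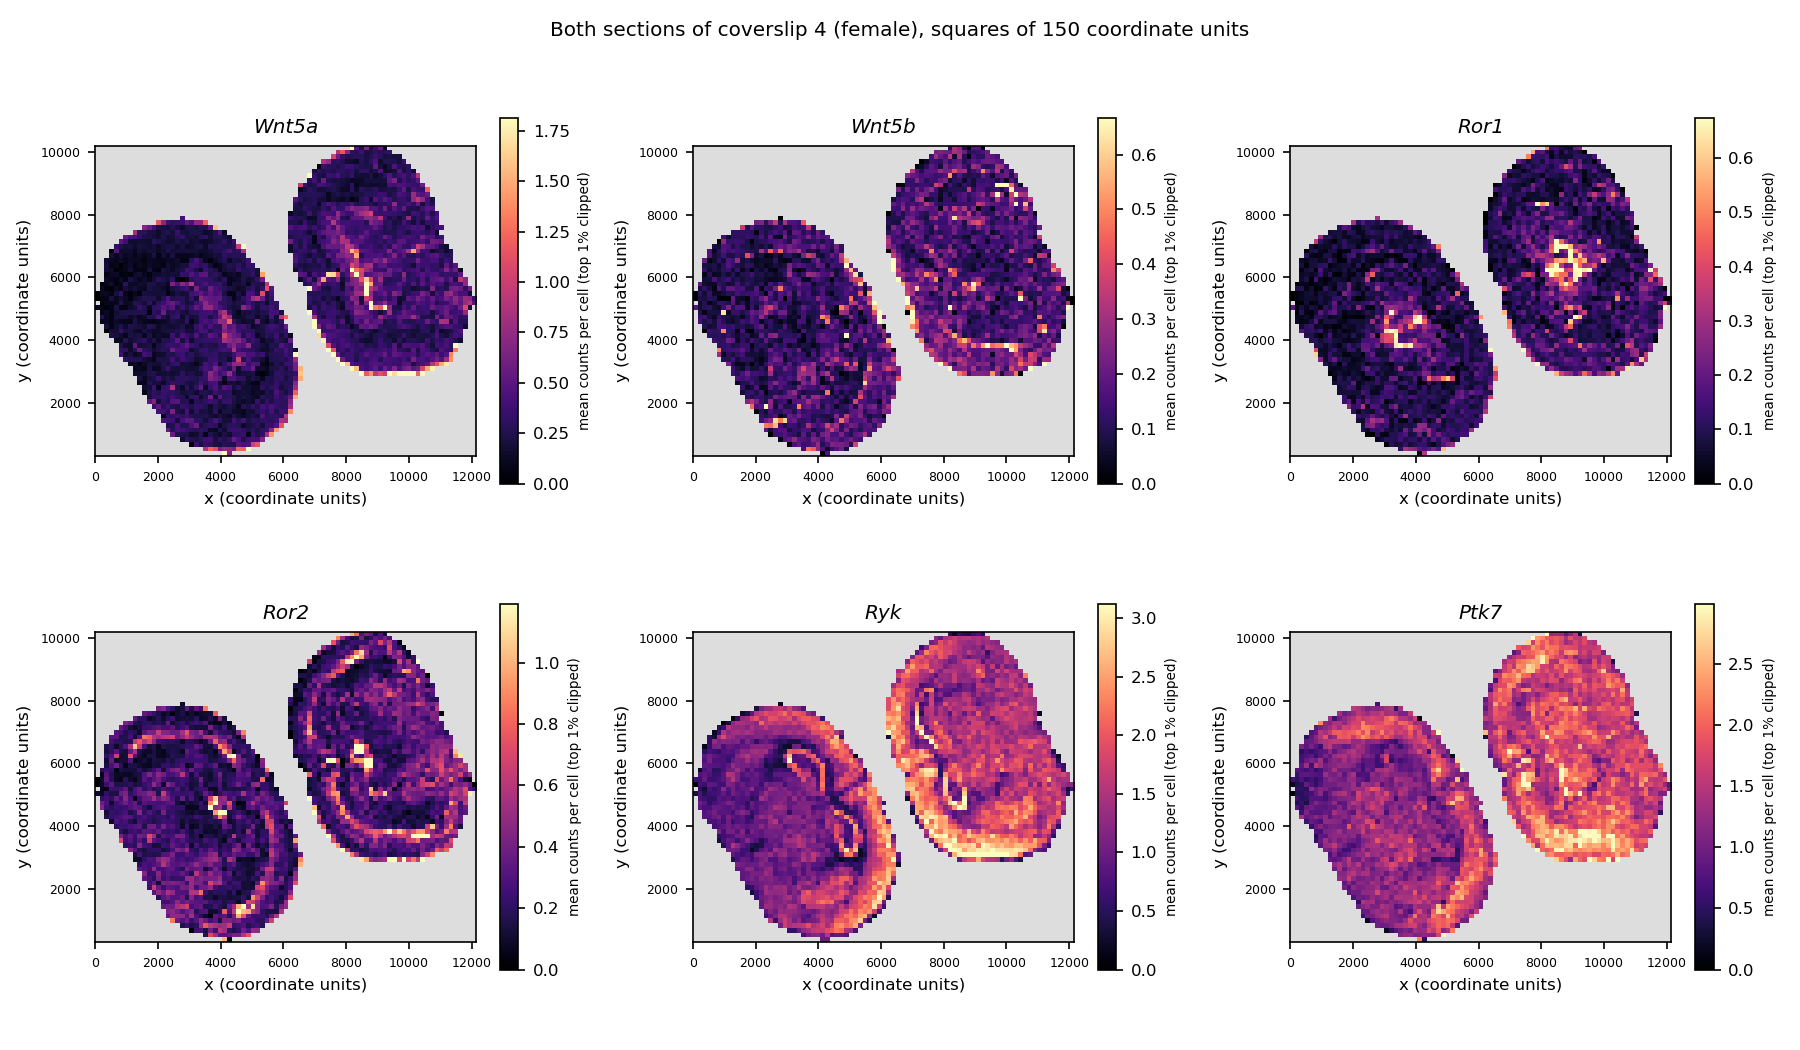
Mean counts per cell of each gene in squares of 150 coordinate units over both sections of coverslip 4; grey is outside the tissue, and the colour scale of each panel is cut at its top 1% of squares. Wnt5a is bright along the outer edge and inner clefts, Ror1 in the inner parts of both sections, and Ror2 in a band within the outer wall.

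The members were then set against distance from the border. The Mrc1 Lyve1 piece was taken as the reference because Wnt5a counts had been highest there in earlier results of these data. Wnt5a differences near it are therefore not independent of that choice. Patches were cells of the Mrc1 Lyve1 piece with at least 3 others within 50 coordinate units; the unit is not stated in the files. On coverslip 4 the median Wnt5a level was 0.780 counts per cell in the 228 map squares that held at least 3 cells of this piece and 0.281 in the 2513 squares that held none. Ryk ran the other way, at 1.01 and 1.43.

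Within a population, cells under 100 units from a patch were compared with cells at 300 or more (edgeR quasi-likelihood test, volume offset). Wnt5a was called higher near patches in 9 of the 9 populations with enough cells, by log2 0.34 to 1.58, where 11.1% to 55.6% of all genes were called higher. It was above every blank in the near cells of 6 of them. Wnt5b was called higher in 6, Ror2 in 5 and lower in 1, Ror1 and Ryk in 4 each, and Ptk7 higher in 4 and lower in 1.

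In microglia-like cells all 6 members were called higher near patches, where 47.2% of genes were called higher and 12% lower. Wnt5a stood there at 0.173 ± 0.024 counts per cell near and 0.067 ± 0.011 far (log2 1.52 ± 0.16, edgeR adjusted p = 2.1e-08), but it was above every blank on only 1 coverslip. Wnt5b, Ror1 and Ror2 were above every blank on none, so of the 6 only Ryk and Ptk7 were measured clear of false counts on all 4 coverslips. The Slc17a6-led and OPC-like cells, each with 29.6% of genes called higher, had Wnt5a differences of log2 0.52 ± 0.07 and 0.60 ± 0.08. Both lower calls were in the Gad1 Gad2-led cells, Ror2 at log2 -0.44 ± 0.11 and Ptk7 at -0.24 ± 0.06, 2 of 6 members where 43.5% of genes were called lower.

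Astrocyte-like cells near patches had Wnt5a at 0.507, 0.434, 0.507 and 0.646 counts per cell, against 0.255, 0.213, 0.269 and 0.388 far from them. All 4 near values lay above all far values. The difference was log2 1.06 ± 0.09 (edgeR adjusted p = 2.2e-15), and 5 of 6 members were called higher where 55.6% of all genes were. Ror1 rose by log2 1.13 ± 0.10, from 0.068 ± 0.010 to 0.135 ± 0.023 counts per cell, but was above every blank on only 2 coverslips. This rise was not particular to astrocyte-like cells. Ror1 rose by log2 1.71 ± 0.19 in the population with no leading marker and by 1.22 ± 0.17 in the Bcl11b-led cells, where 38.9% and 25% of genes were called higher. Only in the former did it clear every blank on all 4 coverslips in either distance class. Wnt5b, at 0.105 ± 0.019 near patches, was under the highest blank. Ptk7 (log2 0.47 ± 0.07) and Ryk (log2 0.22 ± 0.07) differed by less; with TMM factors Ryk moved to log2 -0.01 and was not called, and its call also failed without coverslip 2 (log2 0.20). The median over all genes was log2 0.21 by volume and -0.02 with TMM factors, and 0.23 and 0.04 in the Cldn5 Pecam1-led cells below.

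Ror2 in astrocyte-like cells was not called by volume (log2 -0.01 ± 0.09, edgeR adjusted p = 0.942). Its counts per cell were lower near patches on all 4 coverslips, at 0.262 ± 0.056 against 0.291 ± 0.057, and it was called lower near them with TMM factors (log2 -0.24), DESeq2 (-0.24) and library totals (-0.28). Its profile was not monotonic. It fell from 0.379 ± 0.085 counts per cell within 25 units of a patch to 0.188 ± 0.041 at 50 to 100 units, and stood at 0.307 ± 0.060 beyond 600. With near cells taken within 50 units it was called higher (log2 0.31, adjusted p = 0.0104).

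In Cldn5 Pecam1-led cells 4 of 6 members were called higher near patches, where 50% of genes were. Ror2 stood at 0.513, 0.353, 0.458 and 0.554 counts per cell near patches and at 0.190, 0.131, 0.151 and 0.170 far from them, where it was not above every blank. The ranges did not overlap, and the difference was log2 1.77 ± 0.12 (edgeR adjusted p = 3.3e-35). Wnt5a rose from 0.442 ± 0.058 to 1.14 ± 0.16 (log2 1.58 ± 0.11, edgeR adjusted p = 1.2e-36) and Wnt5b from 0.189 ± 0.047 to 0.391 ± 0.122 (log2 1.25 ± 0.12, edgeR adjusted p = 1.9e-20). Ror1 was not called, at 0.273 ± 0.054 near and 0.281 ± 0.049 far (log2 0.17 ± 0.12, adjusted p = 0.208).

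The change with distance differed between these populations for 4 of the 6 members, by an interaction test chosen after the values were seen. Ror1 rose more toward patches in astrocyte-like cells (difference of log2 0.94 ± 0.15, edgeR adjusted p = 1.2e-05), 1 of 6 members against 25% of genes. Ror2 (log2 -1.78 ± 0.13), Wnt5b (-0.84 ± 0.14) and Wnt5a (-0.53 ± 0.12) rose more in the Cldn5 Pecam1-led cells, 3 of 6 against 27.8% (edgeR adjusted p = 1.4e-10, 2.1e-05 and 0.00067). Ptk7 and Ryk were not called different (log2 -0.01 ± 0.11 and 0.06 ± 0.10). The differences in Ror1, Ror2 and Wnt5b rest partly on levels that did not clear every blank, as given above for Ror1 and Wnt5b in astrocyte-like cells and far Ror2 in Cldn5 Pecam1-led cells.

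Genes of the patches themselves were also higher in the near cells. Mrc1 stood at 0.131 ± 0.026 counts per cell in near and 0.041 ± 0.006 in far astrocyte-like cells, and at 0.330 ± 0.073 and 0.068 ± 0.013 in Cldn5 Pecam1-led cells. Lyve1 stood at 0.122 ± 0.026 and 0.063 ± 0.015 in the former and at 0.268 ± 0.045 and 0.074 ± 0.008 in the latter. Wnt4, which was high in the Mrc1 Lyve1 piece, stood at 0.503 ± 0.090 near and 0.278 ± 0.035 far in astrocyte-like cells and at 1.07 ± 0.13 and 0.193 ± 0.038 in the others. In cells without any Mrc1 or Lyve1 count the near difference was log2 0.97 for Wnt5a and 1.10 for Ror1 in astrocyte-like cells, and 1.66 for Ror2 in Cldn5 Pecam1-led cells. This choice of cells cannot leave out RNA from patch cells that lack Mrc1 themselves. The 40.9% of the piece without Csf1r, Mrc1 or C1qa counts carried 2.27 ± 0.25 Wnt5a, 0.652 ± 0.127 Ror1 and 1.46 ± 0.24 Ror2 counts per cell. The part of RNA from patch cells in the distance results was not tested further.

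**Figure D5:**
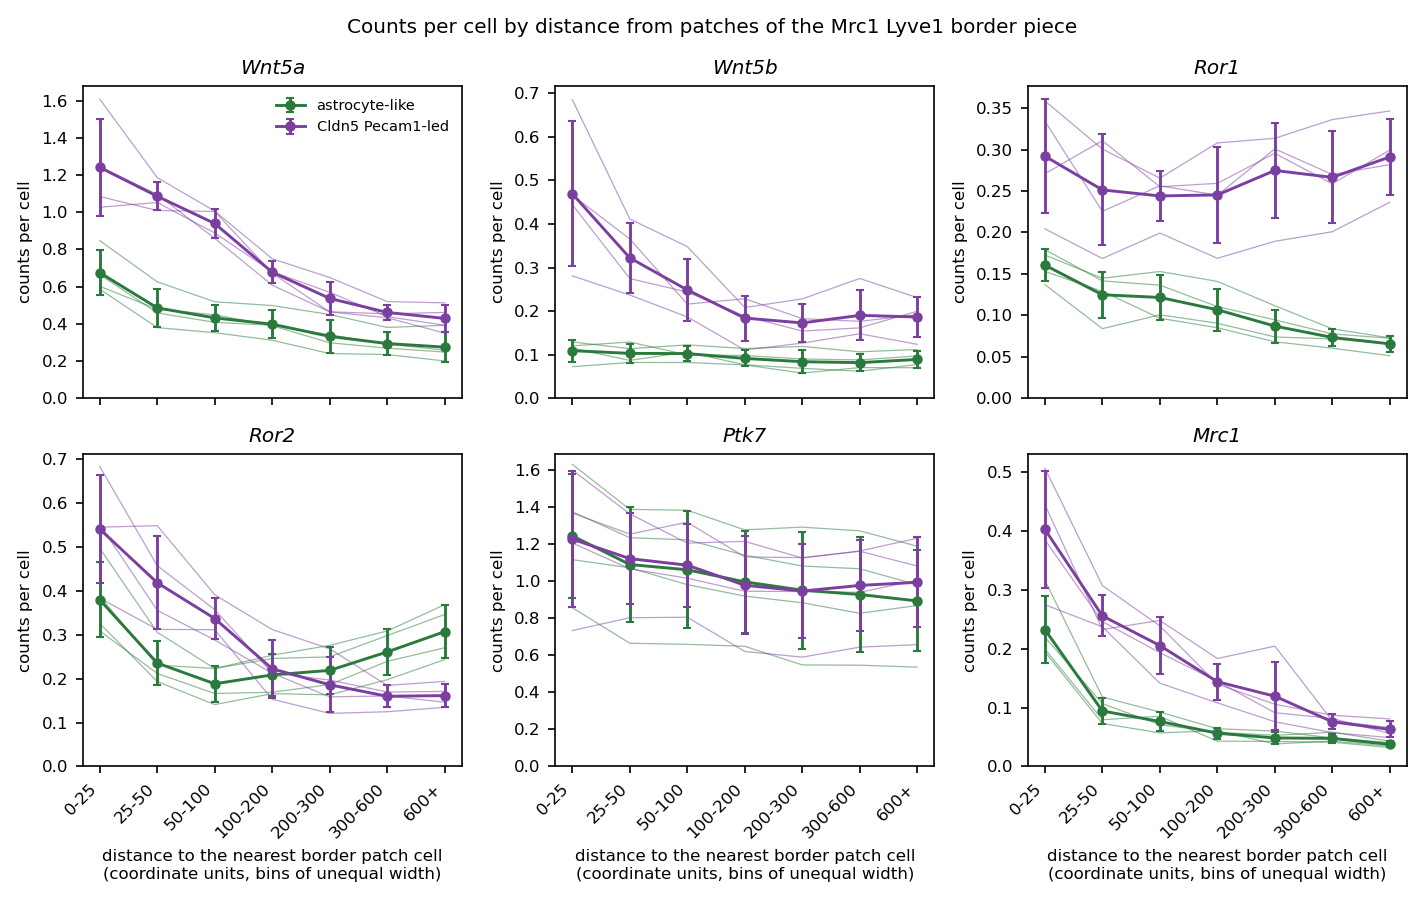
Counts per cell against distance from the nearest border patch cell, in bins of unequal width, for astrocyte-like and Cldn5 Pecam1-led cells. Thick lines are means over 4 coverslips with SD bars and thin lines single coverslips; Wnt5a declines with distance in both, Ror1 only in the astrocyte-like cells, and Ror2 has a dip in astrocyte-like cells. Mrc1, a gene of the patches, is drawn for comparison.

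Of the noncanonical list 13 of 24 were higher and 6 lower near patches in astrocyte-like cells, where 55.6% and 18.5% of all genes were, with the Wnt secretion gene Wls (log2 1.60 ± 0.09), Gpc3 (log2 1.52 ± 0.11) and Fzd1 (log2 1.18 ± 0.07) furthest above. In Cldn5 Pecam1-led cells 14 were higher and 3 lower, where 50% and 15.7% of all genes were, led by Wnt4 (log2 2.71 ± 0.12), Fzd7 (log2 1.78 ± 0.12) and Fzd2 (log2 1.75 ± 0.13). The median over the list was log2 0.17 and 0.27, against 0.21 and 0.23 over all genes tested.

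Across the 16 populations the genes whose levels per volume were most like Wnt5a were Col4a6 (Pearson r = 0.942), Trabd2b, a Wnt-inactivating protease gene (0.900), and Wnt5b (0.889). For Wnt5b they were Adgra2 (0.891), Wnt5a and Trabd2b (0.842), and for Ror1 they were Trabd2b (0.889), Fzd7 (0.858) and Wnt5a (0.840). Ror2 was less closely matched, with Ptk7 (0.764), Col4a6 (0.732) and Wnt5a (0.709), and Ptk7 went with Col4a6 (0.855), Lyve1 (0.836) and then Trabd2b. Ryk was most like Wnt8a (0.926), Csnk1a1 (0.922) and Csnk2a1 (0.919). Populations share coverslips and false counts, so these correlations are a description.

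No member was called different between female and male coverslips. Per 1000 gene counts over all kept cells, Wnt5a stood at 1.25 and 1.10 on the female and at 1.41 and 1.46 on the male coverslips, and Ror2 at 1.07 and 0.957 against 1.55 and 1.10. By this measure female and male values did not overlap for Wnt5a, Ror1, Ror2 and Ptk7, with 2 coverslips a sex. How many of all genes were separated in this way was not counted, so the separation is not a result about the members. The gap was narrow for Ptk7, whose lower female value was 4.81 and higher male value 4.79. It was also narrow for Ror1 (higher female value 0.550, lower male value 0.563) and Ror2 (1.07 and 1.10). The differences were log2 -0.24 ± 0.18 for Wnt5a, -0.34 ± 0.19 for Ror2 and 0.30 ± 0.17 for Ptk7, and smaller for the others. They depended on the scaling: with the volume offset of the other comparisons Wnt5a (log2 0.18), Ror1 (0.25) and Ror2 (0.065) turned, and in counts per cell both female Wnt5a values (0.291 and 0.357) lay above both male ones (0.272 and 0.285). No member was called by edgeR (adjusted p of 0.433 or more, unadjusted p of 0.071 or more) or DESeq2, where 1.43% of 140 genes were called higher and 3.57% lower in females. In simulated data with 20 of 140 genes changed, this design recovered 60% of 2-fold changes and made 1 false call. An exact permutation test of 2 against 2 cannot go below p = 0.333. Within a coverslip the section with more Wnt5a per 1000 gene counts held at most 1.10 times the other, and the largest such ratio of any member was 1.47, for Ror2. In counts per cell the ratios were larger for Wnt5a, up to 1.49 over all kept cells and 1.52 in the Mrc1 Lyve1 border piece. In that piece they reached 1.79 for Ptk7 and 1.74 for Wnt5b. Sections were separated by position, and their genotypes were not known.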

How the data were processed

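Per the labels' protocols, fixed 10 µm sections were hybridized with a custom MERFISH library and imaged. Software for decoding and segmentation was not given in the sources used here. The authors deposited whole-number counts per segmented cell for 140 genes and 40 blank barcodes, with no normalization; cell volume and centre are other deposited measures, with no unit per the file headers. The members and lists were chosen with earlier results of these data known.

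Cells with at least 20 gene counts were kept. Counts of 32 marker genes, scaled to 200 per cell and log-transformed, were clustered with the Leiden method (leidenalg 0.10.2, 15 neighbours, 60000 cells drawn, resolution 1) and the other cells took their neighbours' cluster; resolutions 0.5 and 2 were alternatives. Counts were summed per coverslip and population and tested with edgeR 4.0.16 (R 4.3.3), coverslip as block, log volume as offset, Benjamini-Hochberg adjustment at 0.05; TMM factors were used between sexes. Alternatives included DESeq2 1.42.0, limma 3.58.1, TMM factors, library totals, 50 counts per cell, genes above blanks and each coverslip left out. Named were the 6 members, the 3 genes most like each, and up to 3 called genes of the noncanonical list per comparison. On simulated data with 108 genes the population fit recovered 100% of 4-fold changes and the distance fit 100% of 2-fold changes. These data held no blank counts, and rates that differed only in the changed genes. The recovery therefore does not cover genes near or under the blanks, or real differences between coverslips. Promoter windows and gene positions came from RefSeq, build GRCm38.p6. One of the populations enters the counts and means but is not reported here by itself.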

Additional observations from a re-analysis of the deposited data

Results flagged for a closer look

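The change with distance from border patches differed between astrocyte-like and Cldn5 Pecam1-led cells. The difference of the log2 near-to-far changes was 0.94 ± 0.15 for Ror1, -1.78 ± 0.13 for Ror2, -0.84 ± 0.14 for Wnt5b and -0.53 ± 0.12 for Wnt5a (edgeR interaction test, adjusted p = 1.2e-05, 1.4e-10, 2.1e-05 and 0.00067). Without 1 coverslip in turn they ran from 0.85 to 1.01, -1.87 to -1.68, -0.92 to -0.74 and -0.60 to -0.44.

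Ror2 was also counted in cells outside the main populations. In the cluster left out for low counts, which holds most of the Vip-led cells, it stood at 1.03, 0.305, 0.806 and 0.205 counts per cell (mean 0.586 ± 0.395, SD, n = 4), above all blanks on 3 coverslips, while the highest blank there reached 0.790, 0.502, 0.436 and 0.159. Without the Vip-led cells it was above all blanks on 2 coverslips, at 0.585 ± 0.469. In cells with fewer than 20 gene counts it stood at 0.0565 ± 0.0376 per cell, again above all blanks on 3 coverslips.

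In 96 groups of 4 coverslips, 3 held a coverslip far from the other 3, where chance alone gives about 1 in 20. All were female replicate 2 (coverslip 4), the most deeply counted: Ryk in Rorb-led cells at 2.73 per 1000 volume units against 1.83 for the next, Wnt5a in Slc17a6-led cells at 0.343 against 0.289, and Wnt5b in Bcl11b-led cells at 0.227 against 0.153.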

How the results depend on the processing

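Of the 96 comparisons of members by population, 10 were called higher, where 11.2% of all genes were, and 9 to 10 without 1 coverslip. Another 11 were called lower, where 13.4% of all genes were. They became 3 in DESeq2, 3 with TMM factors, 7 with library totals and 10 to 11 without 1 coverslip. Near patches 32 were called higher over the 6 members in 9 populations, where 11.1% to 55.6% of all genes were in a single population. They became 19 among genes above the blanks and 25 to 29 without 1 coverslip. The 2 called lower near patches, where 12% to 43.5% of all genes were, became 1 among genes above the blanks, 1 with library totals and 0 to 2 without 1 coverslip. In astrocyte-like cells 5 were called higher, where 55.6% of all genes were. They became 3 in DESeq2, with TMM factors, among genes above the blanks and with library totals, and 4 to 5 without 1 coverslip.

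Signs turned, on the log2 scale, mainly for values near 0. In DESeq2 these were Wnt5b in microglia-like cells (0.17), Ryk between border pieces (0.15), near and far Ryk in astrocyte-like cells (-0.015), Ror1 (-0.053) and Ryk (-0.074) in Cldn5 Pecam1-led cells, and the Ptk7 interaction (0.12). With TMM factors the same Ryk and Ror1 values were 0.12, -0.0090, -0.013 and -0.032, and the Ptk7 interaction 0.035. With library totals they were 0.17 for Ror1 in Vip-led against Sst Pvalb-led cells, -0.049 for Ryk in astrocyte-like cells, -0.027 for Ror1 and -0.047 for Ryk in Cldn5 Pecam1-led cells, -0.0016 for the Ryk interaction, and -0.0030 for Wnt5b and -0.032 for Ryk between the sexes. With a volume offset Wnt5a (0.18), Ror1 (0.25) and Ror2 (0.065) turned between the sexes. Ror2 near and far in astrocyte-like cells was 0.019 at 50 counts per cell, 0.31 with near cells under 50 units, 0.045 without low-signal squares and -0.038 to 0.029 without 1 coverslip. The Ptk7 interaction was 0.087 in cells without Mrc1 or Lyve1 counts, 0.014 with far cells from 600 units, 0.016 with near cells under 50 units and -0.053 to 0.065 without 1 coverslip. Ryk between the sexes was -0.0091 to 0.039 without 1 coverslip. The causes were not tested.

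Coverslip was a block in the population and distance fits. No paired analysis was possible between the sexes or genotypes because the replicate numbers only name coverslips in accession order, and no column gives the genotype of a cell's section. With 4 coverslips, and 2 a sex, small differences cannot be resolved. Blank barcodes limit Wnt5b and Ror1, which lay under the highest blank on every coverslip in 12 and 13 of 16 populations.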
